A study of Homo sapiens with 6 samples.

Results

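DNA methylation was examined at 6 promoters that are known for hypermethylation in prostate cancer, those of GSTP1, APC, RARB, RASSF1, CCND2 and PTGS2, in PC-3 cells, an established androgen-independent prostate carcinoma line. A promoter was taken as the 1.5 kb on each side of a given transcription start in the hg19 build. A CpG was a member when at least 10 reads, summed over both strands, covered it in at least 2 SAM and at least 2 control libraries. This gave 74 member CpGs among 686608 CpGs of the genome that met the same read rule. They lay in 3 of the 6 promoters, with 39 at GSTP1, 24 at CCND2 and 11 at RASSF1, and none at APC, RARB or PTGS2. Bisulfite sequencing had been applied to genomic DNA from PC-3 cells, 3 samples given 160 µM S-adenosylmethionine (SAM) for 5 days and 3 given PBS (control) for 5 days. The labels do not say that the replicates were separate cultures, so each p below reflects the spread among the 6 samples, part of which may be technical. Values for the 3 libraries of a group are given in the order of replicates 1, 2 and 3.

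SAM is the methyl donor that DNA methyltransferases use to convert cytosine to 5-methylcytosine. Promoters rich in CpGs are usually unmethylated in normal cells, and dense methylation around a start goes with a silent gene. Hypermethylation of the GSTP1 promoter is among the most frequent epigenetic changes of prostate carcinoma, and the other 5 promoters have been studied beside it as markers of the disease. The genes differ in role. GSTP1 encodes a glutathione S-transferase that detoxifies electrophiles, APC a scaffold of the complex that degrades beta-catenin, RARB a retinoic acid receptor and RASSF1 a Ras-association scaffold protein with growth-restraining isoforms. CCND2 encodes cyclin D2, a partner of the kinases that drive G1, and PTGS2 the cyclooxygenase that makes prostaglandins in inflammation.

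For GSTP1 the RefSeq promoter sequence is shown because 11 of the member CpGs lie in it, and for RASSF1 because it marks a second start of the gene with a different methylation level. Both are the 250 bases before a RefSeq start, written 5′ to 3′ along the gene, in build GRCh38.p14, at chr11:67583562-67583811 (plus strand) and chr3:50337451-50337700 (minus strand). Capitals mark the CG dinucleotides with member values in the first sequence, and those listed in any library in the second.
GSTP1: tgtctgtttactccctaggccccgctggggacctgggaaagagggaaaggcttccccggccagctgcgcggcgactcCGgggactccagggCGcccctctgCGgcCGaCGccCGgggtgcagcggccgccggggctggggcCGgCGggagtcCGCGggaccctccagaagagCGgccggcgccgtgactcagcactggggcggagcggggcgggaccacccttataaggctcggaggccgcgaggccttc
RASSF1: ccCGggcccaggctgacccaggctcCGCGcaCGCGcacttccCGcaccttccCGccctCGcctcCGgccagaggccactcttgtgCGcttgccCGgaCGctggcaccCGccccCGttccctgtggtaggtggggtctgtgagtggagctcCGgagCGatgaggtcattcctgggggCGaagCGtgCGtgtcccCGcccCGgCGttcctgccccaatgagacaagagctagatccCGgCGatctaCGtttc
The sequences were placed by the spacing of the listed CpGs and not by converting coordinates between builds. All 21 CpGs listed in the GSTP1 stretch fell on a CG at 1 offset, where the next best offset placed 5 of 12, and all 33 of the RASSF1 stretch fell on a CG, where the next best placed 4 of 10. Among 35116 RefSeq promoter sequences each pattern had 1 placement. By this match the RefSeq start of GSTP1 lies 217 bases downstream of the start used here, so the 11 members in the sequence stand 173 to 78 bases before the RefSeq start (-173 to -78). The GSTP1 sequence held 28 CGs in these 250 bases, of which 11 carry member values. Over the whole 300 bases of the table's entries it held 36, a number that 12.7% of the promoters reached. The motif TGACTCA, searched on both strands, occurred once in it, and 4.95% of all 300-base promoter sequences held it. GGGCGG, searched on both strands, occurred 2 times in the GSTP1 sequence and 3 times in the RASSF1 sequence, and 45.0% of all promoters held it. Neither motif overlaps the other.

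Depth differed among the promoters and the libraries. Total reads over listed positions ran from 33056018 to 183523792 per library, and control replicate 2 and SAM replicate 2 had the fewest. Of the 39 GSTP1 members, 19 were below 10 reads in SAM replicate 2 and 17 in control replicate 2. Of the 11 RASSF1 members these 2 libraries lacked 6 and 8. CCND2 lacked 3 of 24 in SAM replicate 2 and none in control replicate 2. At least 10 reads in all 6 libraries were present at 18 CpGs of GSTP1, 21 of CCND2 and 3 of RASSF1, 42 in all, and these common CpGs carry the comparisons below. Neighbouring CpGs with nearly equal read numbers share reads and are not independent, and copies made by amplification are counted as reads here.

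**Figure D1:**
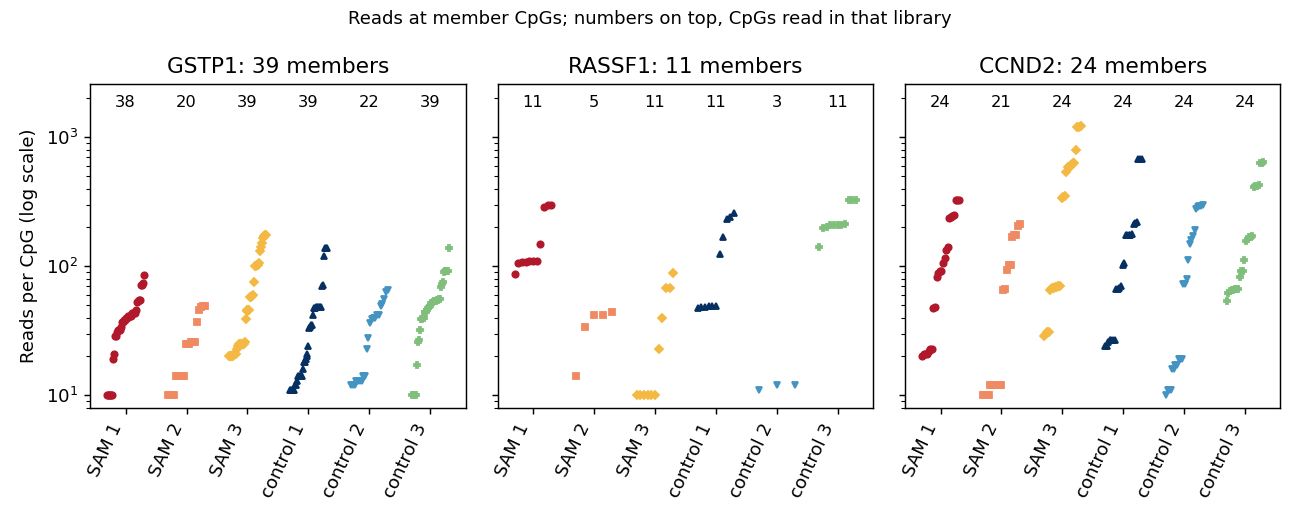
Reads per member CpG (log scale) in each of the 6 libraries, sorted within a library, with the number of members read in that library printed on top. SAM replicate 2 and control replicate 2 hold 20 and 22 of 39 GSTP1 members and 5 and 3 of 11 RASSF1 members, while the other libraries hold at least 38 and all 11.

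RASSF1 was almost fully methylated in every library that read it. Over its 3 common CpGs, 170 to 206 bases downstream of the start, the mean was 97.5, 98.5 and 98.2% with SAM and 97.9, 100 and 98.3% in controls. The 6 libraries lay within 2.49 points of each other, and the groups overlapped. All 11 members, from -118 to +227, had means over libraries of 94.2 to 99.2%. The lowest was at -118, position 50378529 on chromosome 3, with 98.1 and 90.0% in SAM replicates 1 and 3 and 91.8 and 97% in control replicates 1 and 3, and the 90.0% rests on 10 reads. The highest was at +170, position 50378241, with 97.7, 100 and 98.9% with SAM and 98.8, 100 and 100% in controls. A further 20 CpGs of this window were read in too few libraries to be members, and their means were 94.7 to 100%.

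A second RASSF1 start, the one in the sequence above, lies 3530 bases downstream along the gene and outside the window. It was looked at after the values of the first were known. There 30 CpGs met the read rule and 18 were read in all 6 libraries. Their mean was 0.110, 1.02 and 0.140% with SAM and 0.217, 0.118 and 0.826% in controls. RASSF1 thus had 1 start at about full methylation and 1 near 0 in each of the 6 libraries. This contrast between regions of the same libraries is a description without a test.

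GSTP1 was partly methylated, and its level changed with position. Over the 18 common CpGs the mean was 33.8, 14.6 and 28.9% with SAM and 33.2, 30.4 and 33.5% in controls. SAM replicate 2 stood lowest, the other 5 libraries lay between 28.9 and 33.8%, and the groups overlapped. Of the 39 members 14 had a mean over libraries under 20% and 25 lay between 20 and 80%, while none was above 80%. Before the start, 6 members from -122 to -80 had means of 2.67 to 24.2%. From +44 to +139, within the sequence shown above, 11 members had means of 10.9 to 59.0%. The 17 members from +274 to +487 reached the highest means, up to 67.2% at +368, position 67351434 on chromosome 11, yet included the mean of 5.45% at +452. The value at +368 is over 4 libraries, since SAM replicate 2 and control replicate 2 did not read it. Over the same 4 libraries +347 was the highest, at 76.0%, with 72.8% at both +356 and +424. Farther on, 4 members from +654 to +691 had means of 4.69 to 31.5% and the last, at +808, stood at 43.9%. The lowest member of all was at -90, position 67350976, with 10.9, 0 and 5.08% with SAM and 0% in each control library. The 20 further CpGs of this window outside the read rule had means of 35.4 to 100%. Of these the 8 from +230 to +268, each read in 2 libraries, were at 85.2 to 89.6%.

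**Figure D2:**
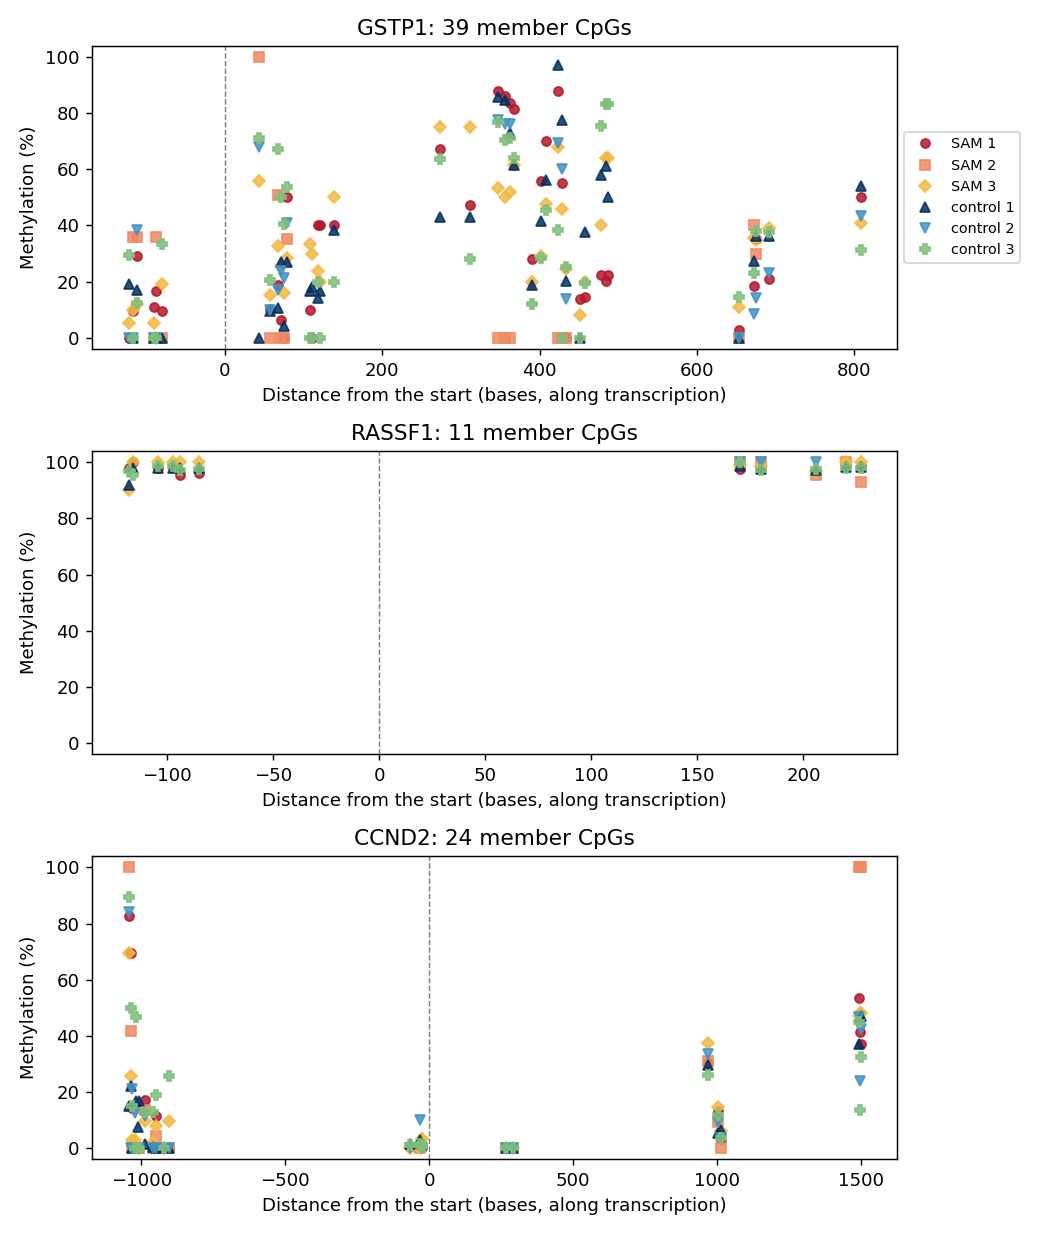
Methylation (%) of each member CpG in each library against its distance from the start in bases along transcription, for GSTP1, RASSF1 and CCND2, with the start as a dashed line. RASSF1 values lie at 90.0% or above, GSTP1 values spread over the whole scale with SAM replicate 2 at 0% between +347 and +434, and CCND2 is lowest next to its start.

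Among the common GSTP1 CpGs, neighbours differed most between libraries in the stretch from +347 to +434. Its 6 common CpGs averaged 66.7, 0 and 49.0% with SAM and 73.1, 62.2 and 47.0% in controls. In SAM replicate 2 all 6 had 0 methylated reads, with 26 reads at each of the 3 from +347 to +363 and 25 at each of the 3 from +424 to +434. A count of 0 in 26 reads allows a share of up to 11.5%, and the exact Clopper-Pearson 95% interval runs from 0 to 13.2%, for counting error only. The 3 at +347 to +363 were read on the minus strand in this library and the 3 at +424 to +434 on the plus strand, so at least 2 sets of reads gave the same value. At +347, position 67351413, methylation was 87.8, 0 and 53.4% with SAM and 85.7, 77.5 and 76.9% in controls. Its difference of -32.97 points between group means was the widest among the common GSTP1 CpGs, and the groups overlapped. Control replicate 3 also departed within this stretch: at +429, position 67351495, it had 0% over 69 reads where the other control libraries had 77.5 and 60.0%. Low values also occurred in SAM replicate 1, at members read in 4 libraries. At +478, +485 and +487 it had 22.2, 20.3 and 22.2%, SAM replicate 3 had 40, 64 and 64%. Control replicate 1 had 57.9, 61.1 and 50% there, and control replicate 3 had 75.5, 83.3 and 83.3%. The difference at +478 was -35.6 points. On the plus strand, read in all 4 libraries, +478 had 31.0 and 40% in SAM replicates 1 and 3. Control replicates 1 and 3 had 57.9 and 64% there. On the minus strand, SAM replicate 1 had 16.3% and control replicate 3 had 85.7%. Not all members read in 4 libraries stood lower with SAM. The difference was -11.2 points at +458. Among them SAM stood higher by 5.91 to 25.7 points from +108 to +139, at +274 and +312, from +368 to +408 and at +452.

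Values at 0% in SAM replicate 2 were not limited to the stretch from +347 to +434. Of the 18 common GSTP1 CpGs 11 were at 0% in this library, against 1 to 4 in each of the others. The 5 outside the stretch were at -90, +58, +72, +75 and +654, on 14, 46, 48, 49 and 10 reads. Other GSTP1 members were not at 0% in it, among them +68, position 67351134, with 51.0% on 49 reads. At the member nearest to the start, +44 (position 67351110), it had 100% over 10 plus-strand reads. On the plus strand control replicate 3 was also at 100% there, and SAM replicate 3 and control replicate 2 were at 60.3 and 75%. The libraries thus differed in which strand was read as well as in level.

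GSTP1 had 1 common CpG at which the groups did not overlap. At -116, position 67350950, methylation was 9.43, 35.7 and 10% with SAM and 0% in all 3 controls, from 53, 14 and 60 reads with SAM and 35, 13 and 40 in controls. The difference was 18.4 points, with an unadjusted p of 0.0296 and an adjusted p of 0.890 from edgeR's quasi-likelihood test over all CpGs, and limma gave an adjusted p of 1. On the minus strand the SAM libraries had 26.3, 35.7 and 19.1%, and control replicates 1 and 3 had 0%. On the plus strand SAM replicates 1 and 3 had 0 and 5.13% and all 3 controls 0%, so there the groups touched. SAM replicate 2 was read on the minus strand alone and control replicate 2 on the plus strand alone. At -88, position 67350978, the controls were all at 0% and the SAM libraries at 16.7, 35.7 and 0%, where the groups touch at 0. SAM replicate 2 had 35.7% on 14 minus-strand reads at each of -116, -111 and -88, so these values may share reads. The remaining members before the start did not all go the same way. The difference was 5.33 points at -90 and 2.92 at -111, but -13.6 at -122 and -7.14 at -80, the latter pair each read in 5 libraries.

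CCND2 was unmethylated next to its start and partly methylated at some CpGs toward the edges of the window. Over its 21 common CpGs the mean was 17.9, 23.8 and 16.4% with SAM and 12.1, 14.2 and 19.3% in controls, and the groups overlapped. The 4 members from -66 to -24 had means of 0.554 to 2.69%, and the 2 at +267 and +292 had 0.0283 and 0%, with at most 1 methylated read in any library. The member nearest to the start, at -24 (position 4382878 on chromosome 12), had 0.412 and 3.23% in SAM replicates 1 and 3 and 1.47, 0 and 0.962% in controls. Upstream, 12 members from -1044 to -905 had means from 73.4% at -1044, the highest of the gene, to 0% at -921, with 5.84% at -905. The mean at -1035 was 34.9%, the rest were at most 12.9%, and the 12 together averaged 13.6%. A further 17 CpGs of this window, from -1431 to +597, were outside the read rule. Their means ran from 0 to 42.6%, with a median of 0.694%. Downstream, 3 members from +970 to +1014 had 31.3, 10.6 and 3.91%, and 3 from +1494 to +1499 had 54.8, 45.6 and 51.2%. The last of these stands 1 base inside the window, and the next CpG, 1502 bases from the start, had a mean of 62.3%. At the other 2 promoters the nearest CpG outside the window that met the read rule was 14470 bases from the GSTP1 start, with a mean of 30.0%, and 2993 bases from the RASSF1 start, with 53.5%.

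The CCND2 values that differed most between libraries were toward those edges. At -1044, position 4381858, methylation was 82.6, 100 and 69.6% with SAM and 14.8, 84.2 and 89.4% in controls, so control replicate 1 alone was low. At +1494, position 4384396, it was 53.4, 100 and 46.9% with SAM and 37.1, 46.6 and 44.9% in controls, and the groups did not overlap. SAM replicate 2 was at 100% at all 3 CpGs from +1494 to +1499 on 10 reads each, for which the exact Clopper-Pearson 95% interval is 69.2 to 100%. The largest difference, 35.0 points at +1497, had overlapping groups. Near the start and at +970 to +1014 the libraries lay closer together. At +970, position 4383872, on 168 to 1215 reads, they had 30.3, 31.0 and 37.3% with SAM and 29.5, 33.7 and 26.0% in controls.

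APC, RARB and PTGS2 gave no member, and the few CpGs listed there were highly methylated in the libraries that listed them. RARB had 3 listed CpGs, from +160 to +171, each read in SAM replicate 1 and control replicates 1 and 3 on 22 to 47 reads, with 95.5 to 100%. APC had 7, each in 1 library. The 4 from -22 to +14 were at 100% in control replicate 1 on 19 to 21 reads, and the 3 from -1021 to -977 at 100% in control replicate 3 on 11 reads. For 19 of 19 reads the exact Clopper-Pearson 95% interval is 82.4 to 100%. PTGS2 had 2, at -413 and -367, with 100 and 81.5% in control replicate 3 on 23 and 27 reads. No comparison of SAM with control can be made at APC and PTGS2, which no SAM library listed, and RARB had 1 SAM library.

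The first comparison asked whether SAM moved the mean level of a promoter. Mean methylation of GSTP1 was 25.8% ± 9.95 (SD, n = 3) after SAM, against 32.4% ± 1.72 (SD, n = 3) after PBS. The difference, SAM minus control, was -6.60 points (SE 5.83, exact two-sided permutation p = 0.4). It was -1.03 points without SAM replicate 2, -10.6 without SAM replicate 1, where the groups did not overlap, and -13.4 when CpGs were weighted by reads. With at least 20 reads in all libraries (11 CpGs) it was -16.2 points and the groups did not overlap (exact permutation p = 0.1). SAM replicate 1 at 44.14% and control replicate 2 at 44.16% nearly touched there. These CpGs lie from +58 to +79 and from +347 to +434. None before the start is kept, while the run at 0% in SAM replicate 2 is. The difference was -5.20 points when SAM replicate 2 was also left out. RASSF1 had 98.0% ± 0.498 (SD, n = 3) after SAM and 98.7% ± 1.11 (SD, n = 3) after PBS. Its difference was -0.680 points (SE 0.704, exact permutation p = 0.5), and -0.0448 points without control replicate 2. For CCND2 the means were 19.4% ± 3.91 (SD, n = 3) and 15.2% ± 3.69 (SD, n = 3), in the same order. They differed by 4.13 points (SE 3.10, exact permutation p = 0.3), which was 1.91 points without SAM replicate 2 and 2.59 without control replicate 1. Without control replicate 3 it was 6.18 points and the groups did not overlap (exact permutation p = 0.2). With at least 20 reads (10 CpGs) it was 0.240 points, weighted by reads -0.00522 points, and within 500 bases of the start (3 CpGs) -1.40 points. The groups overlapped at all 3, and the smallest p that 3 samples against 3 allow is 0.10. In fixed 3 kb windows of the genome and the 3 promoters together, the groups did not overlap in 9.39% of 28964. Adjusted over all of them by Benjamini-Hochberg, the exact p was 1 for each of the 3 promoters.

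Read coverage of the windows divided the libraries most sharply into set A (SAM replicate 1, control replicates 1 and 3) and set B (SAM replicates 2 and 3, control replicate 2), a split that held 60.5% of the coverage variance between libraries. The GSTP1 difference was 0.429 points in set A and -8.63 in set B, so it changed sign between them. CCND2 differed by 2.12 points in set A and 5.89 in set B, and RASSF1 by -0.587 and -1.68 points. Each of these rests on 1 library in an arm, and none was tested.

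**Figure D3:**
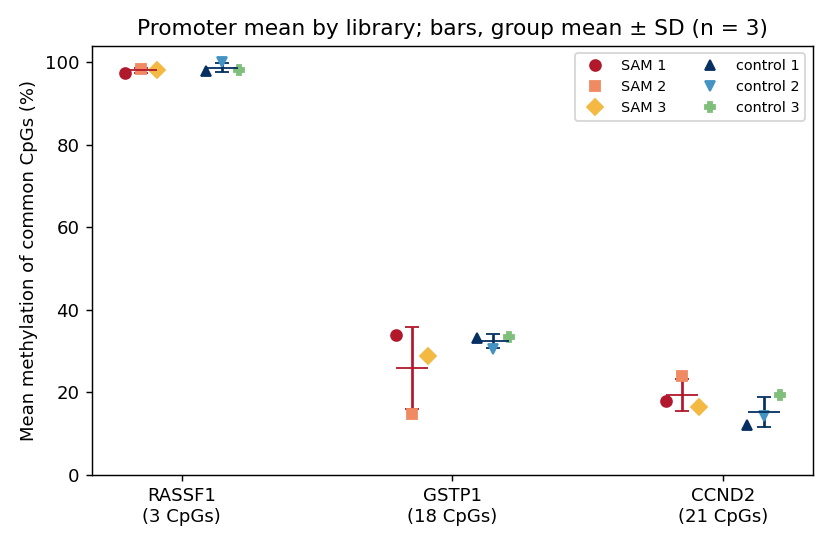
Mean methylation (%) of the common CpGs of each promoter in every library, with the group mean and SD (n = 3) as bars. The SAM and control libraries overlap at all 3 promoters, and SAM replicate 2 is the lowest library at GSTP1 (14.6%) and the highest at CCND2 (23.8%).

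The second comparison tested read counts across the whole genome, by window and by CpG. No promoter was called by edgeR's quasi-likelihood test among 28717 windows, of which 0.0% were called, and the unadjusted p was 0.169 for GSTP1, 0.685 for RASSF1 and 0.966 for CCND2. At an unadjusted p under 0.05 this test gave 881 windows (3.07%) and none of the 3 promoters, and limma called 0 windows with 1176 unadjusted (4.1%). By CpG, 0 of 40 member CpGs with both methylated and unmethylated reads were called by edgeR among 257696 CpGs, of which 0.0% were called, and 1 had an unadjusted p under 0.05, the GSTP1 CpG at -116. Over all CpGs 7244 did (2.81%). Limma, which also took members absent from up to 2 libraries, called 0 of 72 with 2 unadjusted. Over all 490928 CpGs limma called 0.0%, and 3.68% had an unadjusted p under 0.05. These counts of 0 do not show that the promoters were alike in both groups.

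Among the 42 common member CpGs the groups did not overlap at 3, where 4.9% of 336571 common CpGs did not overlap. The 3 were the CpGs at -116 of GSTP1 and +1494 of CCND2, with the SAM libraries above the controls, and at +206 of RASSF1, position 50378205, with 96.9, 95.5 and 97.1% with SAM and 97.4, 100 and 97.6% in controls. None of the 3 had at least 20 reads in all 6 libraries. By the sign of the difference, 7 of 18 GSTP1 CpGs stood above the controls with SAM and 11 below, with a median of -3.74 points. At CCND2 10 stood above, 9 below and 2 were equal, with a median of 0, and at RASSF1 1 stood above and 2 below. Over all common CpGs 133005 stood above, 124642 below and 78924 were equal, with a median of 0.

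The spread between libraries inside the groups was compared with that of other windows of like level, as a description. For the GSTP1 mean the pooled SD inside groups was 7.14 points, against a median of 3.63 and quartiles of 2.06 and 6.50 among 1696 windows within 10 points of its level, and 21.5% of those had a larger SD. CCND2 had 3.80 points, against a median of 2.92 among 2304 windows, and 38.2% had a larger SD. RASSF1 had 0.862 points, against 1.49 among 9812 windows, and 75.6% had a larger SD. Those windows lay mostly below the level of RASSF1, since 5.60% of the other windows had a higher mean. Windows of like level held a median of 9, 11 and 5 common CpGs for GSTP1, CCND2 and RASSF1, which had 18, 21 and 3. At single CpGs the SD inside groups was 20.6 points at GSTP1 and 13.8 at CCND2, where read counting alone gives 6.84 and 4.93, and at RASSF1 it was 1.16 where counting gives 2.11. In the windows of like level the median SD at single CpGs was 10.4, 8.93 and 3.54 points for the levels of GSTP1, CCND2 and RASSF1. Counting alone gave medians of 4.85, 4.01 and 2.20 points there. The GSTP1 CpGs averaged 26.0 to 105 reads per library, below the 43.8 to 174 reads that were the medians of all windows. A range over libraries of more than 50 points was seen at 10 of 39 GSTP1 members, 5 of 24 CCND2 members and none of 11 RASSF1 members. Each range is over the 4 to 6 libraries that read the member, and the share over all CpGs was not computed.

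**Figure D4:**
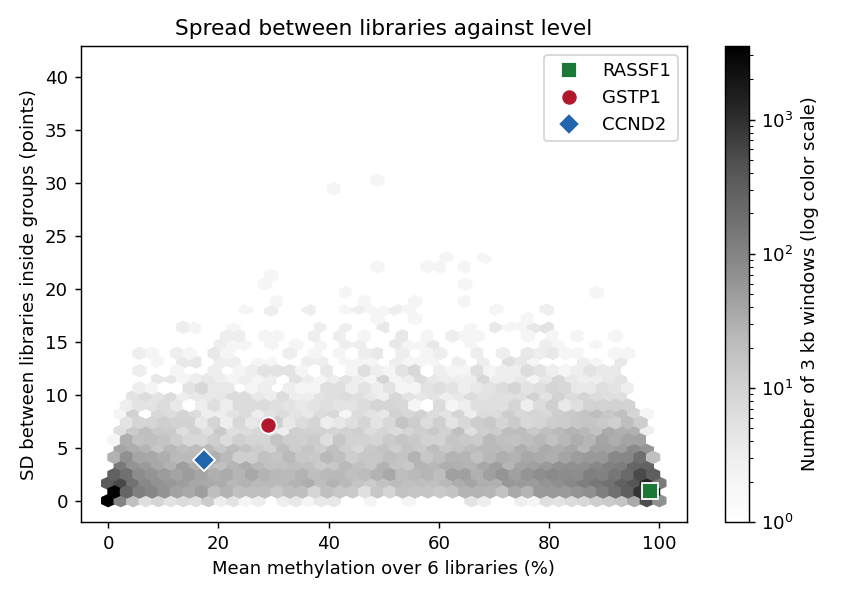
SD between libraries inside groups (points) against mean methylation over 6 libraries (%) for all 3 kb windows with at least 3 common CpGs (grey, log color scale for their number) and the 3 promoters. GSTP1 lies above the median of windows of its level, at 7.14 against 3.63 points, and RASSF1 below, at 0.862 against 1.49.

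Ordered by level, RASSF1 stood above the other 2 promoters in every library, with no overlap. GSTP1 was above CCND2 in 5 of 6 libraries and below it in SAM replicate 2, at 14.6 against 23.8%. Among the other windows 5.60% had a higher mean than RASSF1, 58.4% a higher mean than GSTP1 and 62.1% a higher mean than CCND2. Windows with a mean between 20 and 80% made up 20.7% of all, the class to which GSTP1 belongs, with 38.9% under 20% and 40.5% over 80%.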

How the data were processed

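Each of 6 bisulfite libraries has 1 deposited list of cytosines with strand, coverage as a count of reads and percent of reads with C and T, per the file headers. Bismark 0.7.4, methylKit 0.5.3, CASAVA 1.8.2, FastQC 0.10.0 and hg19 are named per the submitters' processing notes, without roles. The sources used here do not give the library type or the read filters. The lowest deposited coverage count is 10, so thinner positions are not listed.

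Methylated reads were recovered as coverage times percent C, and minus-strand cytosines joined to the plus-strand cytosine 1 base before. At least 98.9% of recovered values lay within 0.05 of a whole read. Levels are percent methylated. A promoter mean weights equally the CpGs with at least 10 reads in all 6 libraries. Means were compared by exact two-sided permutation. Windows (the promoters, and 3 kb tiles of the rest, with at least 3 common CpGs) and CpGs were fitted over the whole table with edgeR 4.0.16 (quasi-likelihood, library effects in the model) and limma 3.58.1 (log2 ratio of methylated to unmethylated reads, 1 added to each), in R 4.3.3, with Benjamini-Hochberg adjustment and a threshold of 0.05. Features without methylated or without unmethylated reads were left out. On simulated windows both tools recovered most planted changes under counting error alone and none once the spread between libraries was added. The added spread was set from observed control levels, which already hold counting error, so that error entered again. A single setting was used for every window. The simulation therefore does not show what size of change could be found in these data. No hg19 annotation was used, so exons and introns are not stated, and promoters beyond these 6 were not analysed. Strands of the genes are from general knowledge. CpGs named are those nearest the start, highest, lowest, or with groups apart. Others were chosen after their values were seen. At GSTP1 these are +347 to +434, +478 to +487 and the other members read in 4 libraries. They also include -88, the other members before the start and the zeros of SAM replicate 2. At CCND2 they are +1497, -1044, -1035 and +970. The members and lists were chosen with earlier results of these data known. The remaining steps ran in Python 3.11.15 (scipy 1.17.1, pandas 2.3.3, numpy 2.4.6).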

Additional observations from a re-analysis of the deposited data

How the results depend on the processing

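The GSTP1 difference stayed below 0 under 14 of 15 alternatives and was 0.429 points in coverage set A. It ranged from -10.6 to -1.03 points when each library was left out. At a minimum of 20 reads, with 11 CpGs, it was -16.2 points and the groups did not overlap (exact permutation p = 0.10). There SAM replicate 1 and control replicate 2 lay at 44.14 and 44.16%, and no CpG before the start was kept. Without SAM replicate 2 as well, a combination chosen after the data were seen, the difference was -5.20 points (exact permutation p = 0.10, the smallest possible). Strands kept apart gave -10.5 points and each library's own members -4.22. The CCND2 difference turned to -0.00522 points when weighted by reads and to -1.40 within 500 bases of the start (3 CpGs), and ranged from 1.91 to 6.18 points when each library was left out. It was 0.240 at 20 reads. The RASSF1 difference ranged from -1.08 to -0.0448 points when each library was left out and kept its sign in 14 of 14 alternatives. Pairing by replicate number again could not change it. The limit of 500 bases and the coverage percentile could not either, since both kept the same 3 CpGs. No RASSF1 CpG had 20 reads in all 6 libraries. Why the values moved was not tested. Calls of promoter windows and member CpGs were 0 in all alternatives (edgeR and limma), which is no evidence of stability. Member CpGs with groups apart went from 3 of 42 to 0 of 21 at 20 reads, where fewer CpGs remain. Over all CpGs the share was 4.9% of 336571 at 10 reads and 5.45% of 197583 at 20 reads. Deviations from the group mean were nearly uncorrelated between samples of equal replicate number (-0.00509, 0.00846 and -0.00791). This cannot decide whether the samples were paired, and the labels do not say. The replicate block, which pairs samples of equal number, cannot change a difference of means. The GSTP1, RASSF1 and CCND2 differences therefore stayed at -6.60, -0.680 and 4.13 points (exact sign-flip p = 0.5, 0.25 and 0.5) with 0 calls. The smallest sign-flip p that 3 pairs allow is 0.25.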
